A study of Mus musculus with 12 samples.

Results

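This account covers the cytosolic ribosomal protein genes, 84 of the 24946 genes listed for mouse haematopoietic stem cells. They were taken by name: Rpl or Rps followed by a number, with an optional a, x, l or l1, together with Rpsa, Rplp0, Rplp1 and Rplp2. The names gave 52 genes of the large subunit and 32 of the small subunit. A cytosolic ribosome is built from equal numbers of nearly all of these proteins, and cells make them in balanced amounts. Their mRNAs are abundant and many begin with a run of pyrimidines, the 5′ terminal oligopyrimidine (TOP) motif, through which mTORC1 and Larp1 control translation. Haematopoietic stem cells (HSCs) keep protein synthesis low, and loss of 1 copy of several of these genes causes Diamond-Blackfan anaemia in people.

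HSCs of C57BL/6 mice were sorted from bone marrow as Lineage- c-Kit+ CD150+ CD48- CD34- cells, and RNA was read as bulk libraries made with a stranded total RNA kit. The 4 groups, each with 3 libraries, were wild type (WT) naive, WT after IFN-γ, Bst2 knockout (KO) naive and KO after IFN-γ. Bst2 encodes tetherin, which interferons induce and which holds budding virus at the cell surface. Treated mice received 100 µg of recombinant mouse IFN-γ, a cytokine made by activated lymphocytes, and 24 h passed before collection. The labels used here give no age and do not say which mouse a library came from. The p-values therefore rest on the spread among these 12 libraries, which may be technical.

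Each library title also holds a code from 1 of 3 series, FL-06 (6 libraries), R-09 (4 libraries, 1 in each group) and R-07 (2 libraries, KO only). What a code series stands for was not stated, and the libraries separated by it. Summed over 15 neutrophil markers, the level was 101213 to 213889 units in R-09, against 9509 to 16294 in FL-06 and 10895 to 13227 in R-07. Of these 15 markers, 10 were at 100 units or more in all 12 libraries. The 13 monocyte, macrophage and dendritic cell markers summed to 15826 to 31207 units in R-09 and 1116 to 2356 in the other 8 libraries, with 1 marker at 0 throughout. Most of the R-09 sum was Lyz2 (12561 to 23697 units), and the dendritic cell markers Siglech, Itgax and Cd209a stood at 0 to 7.27 units there. The 7 T and NK cell markers in the table summed to 3268 to 3860 units in R-09 and 33.6 to 346 elsewhere, with 2 markers at 0 throughout. The 9 B and plasma cell markers summed to 104 to 417 units outside R-09 and 1249.82 to 1476 in it, and the 7 mast cell and basophil markers to 0 to 349 and 523 to 1549. The sums of the 13 erythroid markers (39032 to 51358 against 49046 to 88423) and the 11 of endothelium and stroma (1060.41 to 1672 against 880.42 to 1172, with 1 marker at 0 throughout) overlapped. Gene by gene, 8 of 9 tested erythroid markers were higher in R-09 than in FL-06 (limma, adjusted p below 0.05) and 1 was lower. That is 88.9% higher, against 35.6% of all tested genes. The 20 HSC genes summed to 41478 to 53365 units over all 12 libraries, and 16 of them were at 100 units or more in every library. Bst2 ranged from 152 to 1514 units over 6 WT libraries and from 0 to 24.8 over 6 KO libraries. In WT naive 2, 10567 genes were above 0, where the other libraries had 12395 to 14640, and its lowest value above 0 was 15.5 units against at most 1.29.

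The values are the authors' normalized counts, called units here. The 84 genes took 8.19% ± 0.248 (SD, n = 6) of all units in FL-06. In R-07 they took 8.54% ± 0.0344 (SD, n = 2), and in R-09 4.37% ± 0.262 (SD, n = 4). The 4 R-09 libraries lay at 4.10 to 4.71% and the other 8 at 7.83 to 8.56%, without overlap. In that order of code series, the large subunit took 5.26, 5.24 and 2.63% of units and the small subunit 2.93, 3.30 and 1.75%. In bulk RNA, fewer cells of one type and less of the mRNA in each cell cannot be told apart. The markers of other blood cells were higher in the same 4 libraries, and their part in the lower share was not tested.

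**Figure D1:**
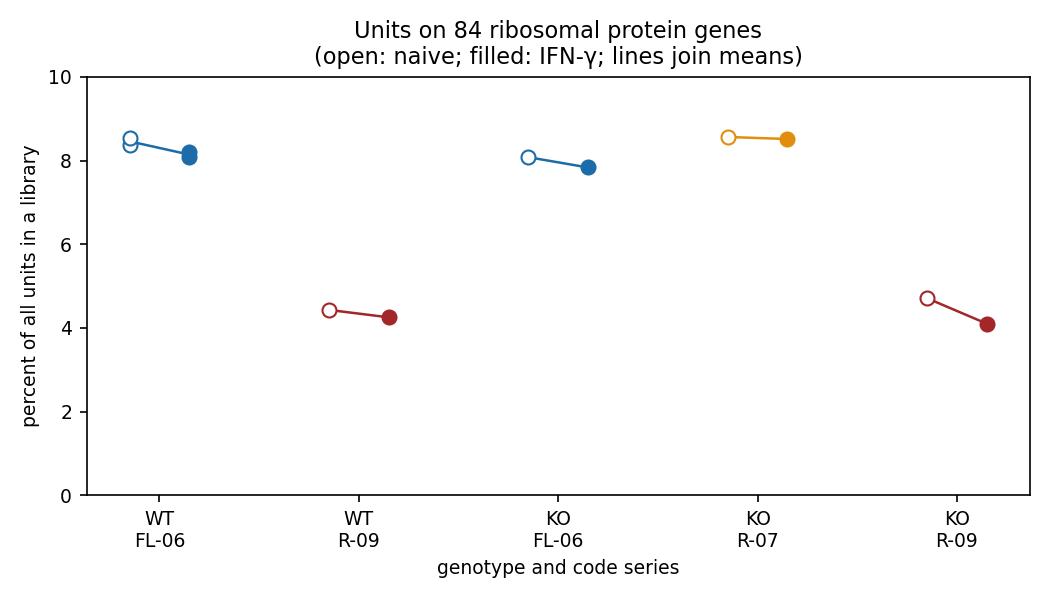
Percent of all units on the 84 ribosomal protein genes (vertical axis) by genotype and code series, with 1 point per library; open points are naive, filled points IFN-γ, and lines join means. The R-09 libraries sit at 4.10 to 4.71% and the others at 7.83 to 8.56%, and in each pair the treated side is the lower one.

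A gene was tested if it reached 100 units in at least 3 libraries, which 10816 genes did. Of the 84 ribosomal protein genes, 81 passed, 49 of the large and 32 of the small subunit, and 79 were at 100 units or more in all 12 libraries. The 3 untested genes were the paralogues Rpl10l, Rpl39l and Rpl3l, known mainly from testis and striated muscle. Rpl10l was above 0 in 2 libraries, at 21.9 and 2.53 units. Rpl39l lay between 0 and 7.88 units and Rpl3l between 0 and 12.9. Counts of tested genes below are over these 81, not over all 84.

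Divided by coding length, the median level of 79 of the tested genes was 26112 units per kb for FL-06, 31896 for R-07 and 12779.8 for R-09. In FL-06, 51 of the 79 lay within 2-fold of that median, and the ratio of upper to lower quartile was 2.65. In R-07 and R-09, 64 and 58 genes lay within 2-fold of their own medians, with quartile ratios of 2.04 and 2.11. Rpl41, which encodes the shortest ribosomal protein, had the highest level per kb in all 3 code series, where a coding length of 75 bases makes the value sensitive to untranslated sequence. The lowest per kb were Rpl22l1 in FL-06 (1350.4 units per kb), Rpl30 for R-07 (1609.8) and Rpl26 for R-09 (2453). Within groups and code series these genes were steady: the residual SD on the log2 scale had a median of 0.133 over the 81 genes, 0.376 over all tested genes and 0.140 over the 249 other genes at least as high as the lower quartile of the ribosomal protein genes. It ran from 0.0695 for Rpl4 to 1.73 for Rpl32l, which was listed at 0 in WT naive 2.

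The first question of the design was the response of WT HSCs to IFN-γ after 24 h. No ribosomal protein gene passed the test (limma, adjusted p below 0.05), and the share of all tested genes that did was 0.00925%. At an unadjusted p below 0.05 there were 2 of 81, Rplp2 and Rps19, against 7.43% of all tested genes. Both were lower after IFN-γ, a direction that 1.74% of all tested genes took at this p. The median difference was −0.01 on the log2 scale for the ribosomal protein genes and 0.11 for all tested genes, and 37 of the 81 lay above 0. The median of the ribosomal protein genes turned to 0.0003 without WT naive 1 and to 0.0045 without WT treated 3.

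Rplp2, a protein of the stalk that recruits the translation GTPases, stood at 25770.3, 29346 and 4579 units in naive WT and 24398, 26139 and 3463 in treated WT libraries. The groups overlapped, and the third library of each, from R-09, was the low one. Its difference was −0.22 (SE 0.0954, adjusted p = 0.63). Rps19, the gene most often mutated in Diamond-Blackfan anaemia, stood at 12789, 13740.3 and 21194 units in naive and 11689, 11927 and 17475 in treated WT, a difference of −0.20 (SE 0.0926, adjusted p = 0.63). The groups overlapped, and the R-09 library was the high one in both. Among the next by p were Rps24 (−0.24), Rpl31 (−0.23) and Rpl37a (−0.33), each with an adjusted p of 0.63. For 72 of the 81 genes the 95% interval of the WT effect lay within 1.5-fold in either direction.

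In KO HSCs no ribosomal protein gene passed the test either, and of all tested genes 0% did. At an unadjusted p below 0.05 there were 7 of 81, against 2.94% of all tested genes, and all 7 were lower after IFN-γ (1.25% of all tested genes). These were Rpl28, Rps4x, Rpl36a, Rpl21, Rpl4, Rpl38 and Rpl17. The median was −0.11, against 0.01 for all tested genes, and 11 of 81 genes lay above 0. It was −0.025 without the 4 R-09 libraries, −0.047 and −0.05 without KO naive 1 or KO treated 2, and −0.17 without KO treated 3. Rpl28, a large-subunit protein, stood at 3446, 11489 and 10334 units in naive KO and 8435, 2820.0 and 8478 in treated KO. Within each code series the treated library was the lower one. The difference was −0.34 (SE 0.0935, adjusted p = 0.9998). Rps4x, the X-linked small-subunit protein, stood at 9621, 20991 and 18494 units in naive and 16920.2, 7184 and 18149 in treated KO, a difference of −0.25 (SE 0.0897, adjusted p = 0.9998). Rpl38, which in mice is needed for the pattern of the axial skeleton, had −0.37 (SE 0.163). For 69 of 81 genes the 95% interval lay within 1.5-fold.

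The KO medians were unequal between code series. Each rests on 1 treated and 1 naive library, so its spread between libraries is not known. Treated minus naive, the median of the 81 genes was −0.28 between the R-09 libraries, with 2 of 81 genes above 0, against −0.02 for all tested genes. It was −0.07 in FL-06 (32 above 0) and 0.0005 in R-07 (41 above 0), with all-gene medians of 0.01 and 0.002. Without the 4 R-09 libraries the KO median was −0.02. Over the same R-09 pair the neutrophil marker sum went from 213889 to 101213 units and the monocyte marker sum from 31207 to 15826, and their part in the difference was not tested. In WT the medians were −0.02 in FL-06 (36 of 81 above 0) and −0.05 in R-09 (29 above 0), beside 0.13 and 0.02 for all tested genes.

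**Figure D2:**
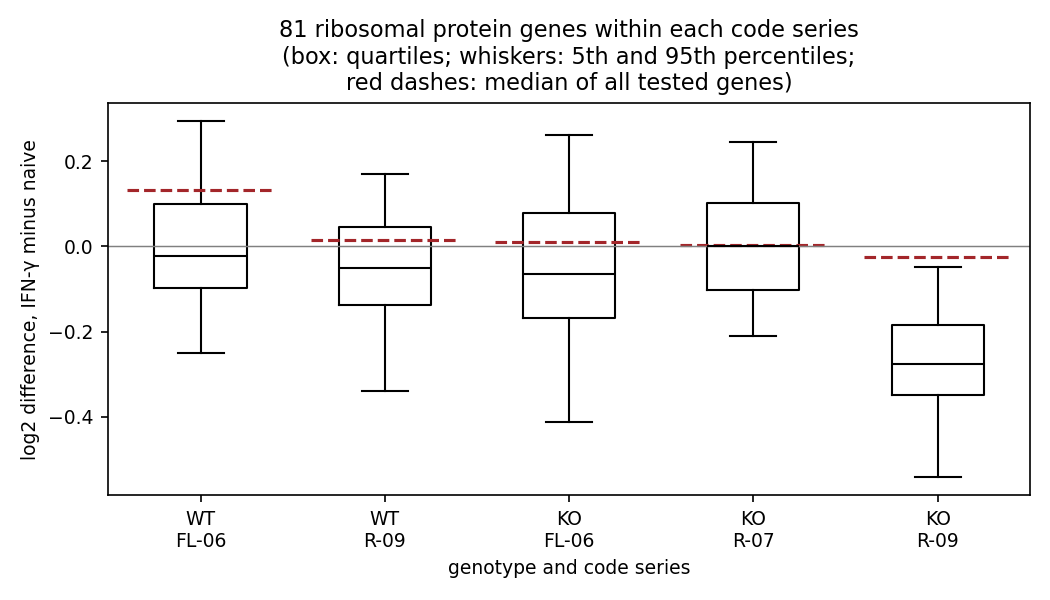
Log2 difference between IFN-γ and naive libraries for the 81 tested ribosomal protein genes (vertical axis) within each genotype and code series; boxes are quartiles, whiskers the 5th and 95th percentiles, and red dashes the median of all tested genes. The KO R-09 box lies below 0 with a median of −0.28, and the other boxes cross 0.

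The share of units on the 84 genes was lower in the treated libraries in all 5 combinations of genotype and code series. It went from 8.46 to 8.14% in WT FL-06 (means of 2 libraries), from 4.43 to 4.25% in WT R-09, from 8.08 to 7.83% in KO FL-06, from 8.56 to 8.51% in KO R-07 and from 4.71 to 4.10% in KO R-09. The neutrophil marker sum was lower in the treated libraries of the same 5 combinations. The monocyte marker sum was also lower, except in KO FL-06, where it went from 1116 to 1362 units. The part of either in the lower share was not tested. The smallest shift of the share, in KO R-07, was 0.0487 percentage points and the largest, in KO R-09, 0.609. Of the 81 genes, 10 (12.3%) were lower after IFN-γ in all 5 combinations, against 2.98% of all tested genes, and 0 were higher in all 5, against 4.52%. Among the 10 were Rpl12, Rpl14, Rpl21, Rpl28, Rpl31, Rpl36a, Rplp2, Rps14 and Rps21.

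Averaged over both genotypes, the IFN-γ effect passed the test for 0 of 81 ribosomal protein genes and 0.0647% of all tested genes. At an unadjusted p below 0.05 there were 11 of 81, all lower, which is 13.6% against 2.01% of all tested genes in that direction. They included Rpl28 (−0.21, SE 0.0661), Rps24 (−0.23, SE 0.0776), Rpl36a (−0.23, SE 0.0784) and Rpl38 (−0.31, SE 0.115). The smallest adjusted p was 0.73, for Rpl28. The median was −0.06, against 0.07 for all tested genes. It was −0.022 without KO naive 1, −0.036 without KO treated 2 and −0.09 without KO treated 3. Without the 4 R-09 libraries it was −0.007.

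Loss of Bst2 gave no call among these genes, in naive or in treated HSCs, and 0% of all tested genes passed in either comparison. In naive HSCs 5 of 81 had an unadjusted p below 0.05, against 6.49% of all tested genes, and the median was 0.04 (0.07 for all). The median turned to −0.026 without KO naive 1 and to −0.018 without the 4 R-09 libraries. Rpl30, a large-subunit protein, stood at 2095, 1363 and 1179 units in naive WT and 1059, 461 and 616 in naive KO. The genotypes did not overlap, and the nearest libraries were WT naive 3 and KO naive 1, both of R-09. Its difference was −0.98 (SE 0.288, adjusted p = 0.707). The other 4 were Rps15a (0.41), Rpl23 (0.30), Rps21 (−0.44) and Rpl13 (−0.29).

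In treated HSCs 4 of 81 had an unadjusted p below 0.05, against 2.09% of all tested genes, and the median was −0.07 (−0.04 for all), or 0.0040 without KO treated 2. They were Rps29 (0.39, SE 0.12), Rps21 (−0.50), Rps14 (−0.41) and Rpsa (−0.29), each with an adjusted p of 1. Rps14, whose human counterpart is lost in the 5q- syndrome, stood at 10206, 11049 and 14974 units in treated WT and 6043, 15261 and 8285 in treated KO. The groups overlapped, with the R-09 library of KO the highest of the 6. The 95% interval lay within 1.5-fold for 69 of 81 genes in naive and 68 in treated HSCs. The IFN-γ effects of the genotypes were not shown to differ for any of the 81 genes, and 0% of all tested genes passed that test. The smallest unadjusted p was 0.0497, for Rps4x (−0.28, SE 0.127, adjusted p = 0.933), the only one of 81 below 0.05, against 3.39% of all tested genes. For this difference of effects the interval lay within 1.5-fold for 55 of 81 genes.

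The code series gave calls for most of these genes. Between R-09 and FL-06, 67 of 81 ribosomal protein genes passed the test (82.7%), where 68% of all tested genes did. Of these, 55 were lower in R-09 (67.9%, against 32.3% of all tested genes) and 12 higher (14.8%, against 35.6%). The median was −1.02 on the log2 scale, against 0.23 for all tested genes, and it was −1.10 over the large and −0.56 over the small subunit. Quantile normalization gave 48 lower and 21 higher, with a median of −0.63. Without a test, 53 of 81 genes had all 4 R-09 libraries below all 6 FL-06 libraries (65.4%, against 28.2% of all tested genes), and 11 had them all above (13.6%, against 31.8%).

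**Figure D3:**
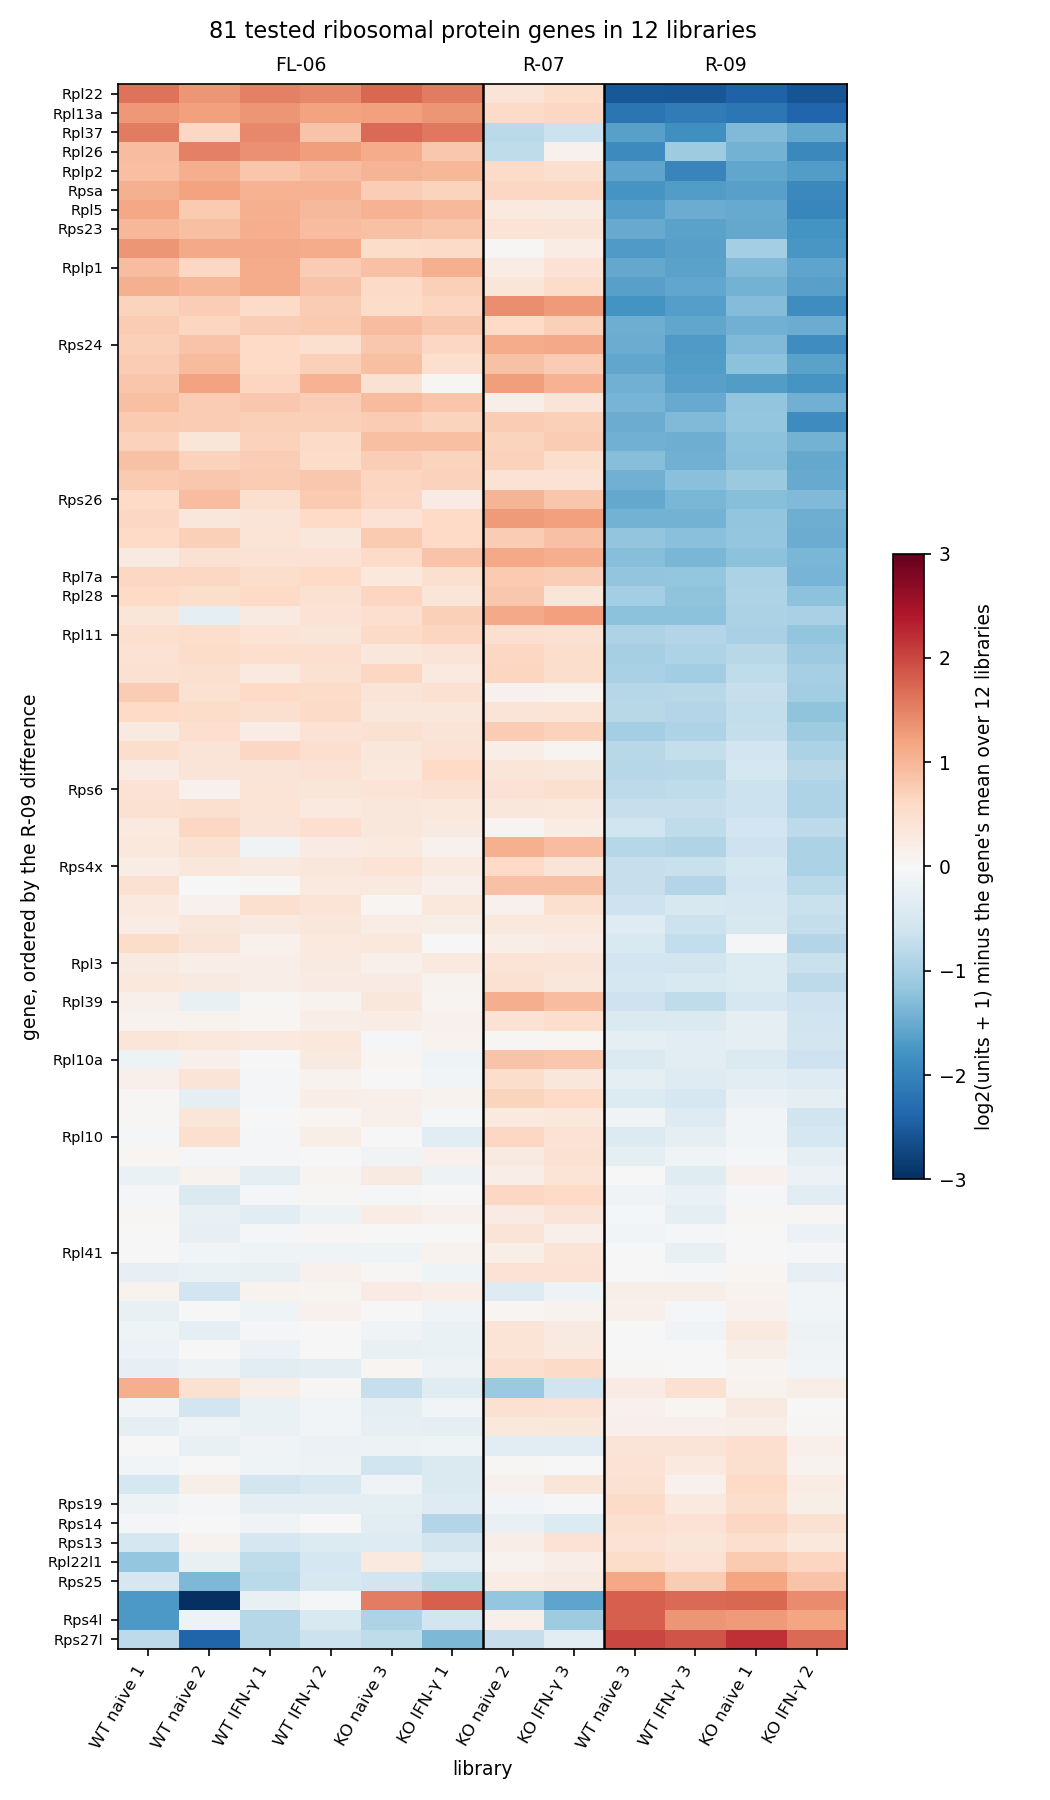
Colour shows log2(units + 1) minus the gene's mean over 12 libraries for the 81 tested ribosomal protein genes (rows, ordered by the R-09 difference, with 28 of them labelled) in 12 libraries (columns, grouped by code series); values beyond 3 in either direction take the end colour. The R-09 columns are blue for most rows and red at the bottom, and the 53 genes with R-09 wholly below FL-06 lie in the upper part.

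The lowest was Rpl22, a large-subunit protein that mouse cells can do without and that T cell development needs. It stood at 1515, 1482, 1639 and 1452 units in the R-09 libraries (WT naive, WT treated, KO naive and KO treated, the order used for R-09 from here on). In FL-06 the lowest, median and highest values were 22249, 25593 and 29175 units, and the R-07 libraries (KO naive and KO treated) stood at 11493 and 13003. The 3 code series did not overlap, with R-07 between the others. The R-09 difference from FL-06 was −4.09 (SE 0.0871, adjusted p = 3.52e-11), a level 17.0-fold lower.

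Rpl13a followed. In human monocytic cells its protein leaves the ribosome after IFN-γ and joins a complex that blocks translation of inflammatory mRNAs. It stood at 5363, 5783, 5522 and 4771 units in R-09, at 36631 and 38072 in R-07 and at 56537, 59568 and 62289 (lowest, median, highest) in FL-06. The code series again did not overlap, and treated and naive libraries of a series lay side by side. The R-09 difference was −3.47 (SE 0.0748, 11.1-fold lower). Its own IFN-γ effects were 0.04 (SE 0.0934) in WT and −0.02 (SE 0.0934) in KO, neither past the test. Rpl37 (−2.95, SE 0.177) and Rpl26 (−2.70, SE 0.207) came next. Rpl26, which binds p53 mRNA, stood at 831, 1472, 1155 and 809.6 units in R-09, 1831 and 3421 in R-07 and 5418, 7063 and 8861 in FL-06.

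The P stalk and its base were lower in R-09 by unequal amounts. Rplp0, which anchors the stalk, stood at 24512, 26519, 29327 and 22557 units in R-09 against 55072, 60016 and 66959 in FL-06, a difference of −1.22 (SE 0.082). Rplp1 stood at 5591, 5269, 6433 and 5387 against 24585, 30095 and 35013 units (−2.43, SE 0.107). Rplp2 stood at 4579, 3463, 4694 and 4312 against 24398, 26839 and 29346 units (−2.68, SE 0.0765). The series did not overlap for any of the 3, and the R-09 to FL-06 gap of Rplp0 was the smallest of them.

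Rpl5 and Rpl11 form a particle with 5S rRNA that can bind Mdm2 and so stabilise p53. Rpl5 stood at 9354, 10487, 10176 and 7585 units in R-09 and 50634, 58898 and 65422 in FL-06, a difference of −2.64 (SE 0.0949). Rpl11 stood at 4573, 4720.1, 4452 and 3807 units in R-09 against 11113, 12241 and 13559 in FL-06, a difference of −1.49 (SE 0.0888). R-09 lay below FL-06 for both genes, and R-07 lay below FL-06 for Rpl5 but inside its range for Rpl11.

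Genes linked to Diamond-Blackfan anaemia did not move as a block. Rps24 (−2.27), Rps26 (−1.97), Rpl26, Rpl5 and Rpl11 were lower in R-09. Rps19 was higher, at 21194, 17475, 20508 and 16150.0 units against 10862, 11808 and 13740.3 in FL-06 (0.65, SE 0.0742, adjusted p = 1.24e-05). Rps27 (−0.11, SE 0.124), Rps29 (−0.06, SE 0.0898) and Rpl35a (0.14, SE 0.0957) did not pass. Of these 3, Rps27 and Rps29 changed sign under quantile normalization, and Rpl35a passed under it.

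Among other small-subunit proteins, Rpsa, also known as the laminin receptor, stood at 15549, 16513, 17149 and 13843 units in R-09 and 84446, 108813 and 121509 in FL-06 (−2.67, SE 0.0867). It was the highest of the group in FL-06 libraries by units. Rps6, the substrate of S6 kinase, stood at 18214, 18519, 19818 and 16365 units in R-09 against 33925, 41240.0 and 42952 in FL-06 (−1.15, SE 0.0841). Rps27a, made as a fusion with ubiquitin, had −1.17 (SE 0.0875) and Rps4x −1.02 (SE 0.0719). Rps14 was higher in R-09 (0.78, SE 0.123), as were Rps13 (0.80) and Rps25 (1.73). Rps25, which some viral internal ribosome entry sites need, stood at 9018, 6872, 9185 and 7323 units in R-09, 4722 and 4878 in R-07 and 1573, 2540.0 and 2892 in FL-06, with no overlap between series.

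In the large subunit, Rpl3, which reaches the peptidyl transferase centre, had −0.79 (SE 0.0731). Rpl10, which joins the subunit late in its maturation, had −0.35 (SE 0.122) and was the called gene nearest to the threshold among the lower ones, with an adjusted p of 0.0258. Rpl10a had −0.47 (SE 0.0874), Rpl7a −1.69 (SE 0.0927), Rpl36a −2.27 (SE 0.0889), Rpl38 −0.80 (SE 0.13) and Rpl39, which lines the exit tunnel, −0.74 (SE 0.105). Rpl41 was nearly level, at 10096, 8608, 10046 and 9754 units in R-09 and 9088, 9331 and 10819 in FL-06 (−0.01, SE 0.0725). Among the 14 genes that did not pass were Rps2, Rps15, Rps18, Rps27, Rps29, Rpl7l1, Rpl9, Rpl15, Rpl30, Rpl32, Rpl32l, Rpl35a and Rpl41. Higher genes of the small subunit also included Rps16 (0.32), Rps27l and Rps4l, and the 4 of the large subunit were Rpl13 (0.61), Rpl18 (0.34), Rpl37a (0.65) and Rpl22l1.

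**Figure D4:**
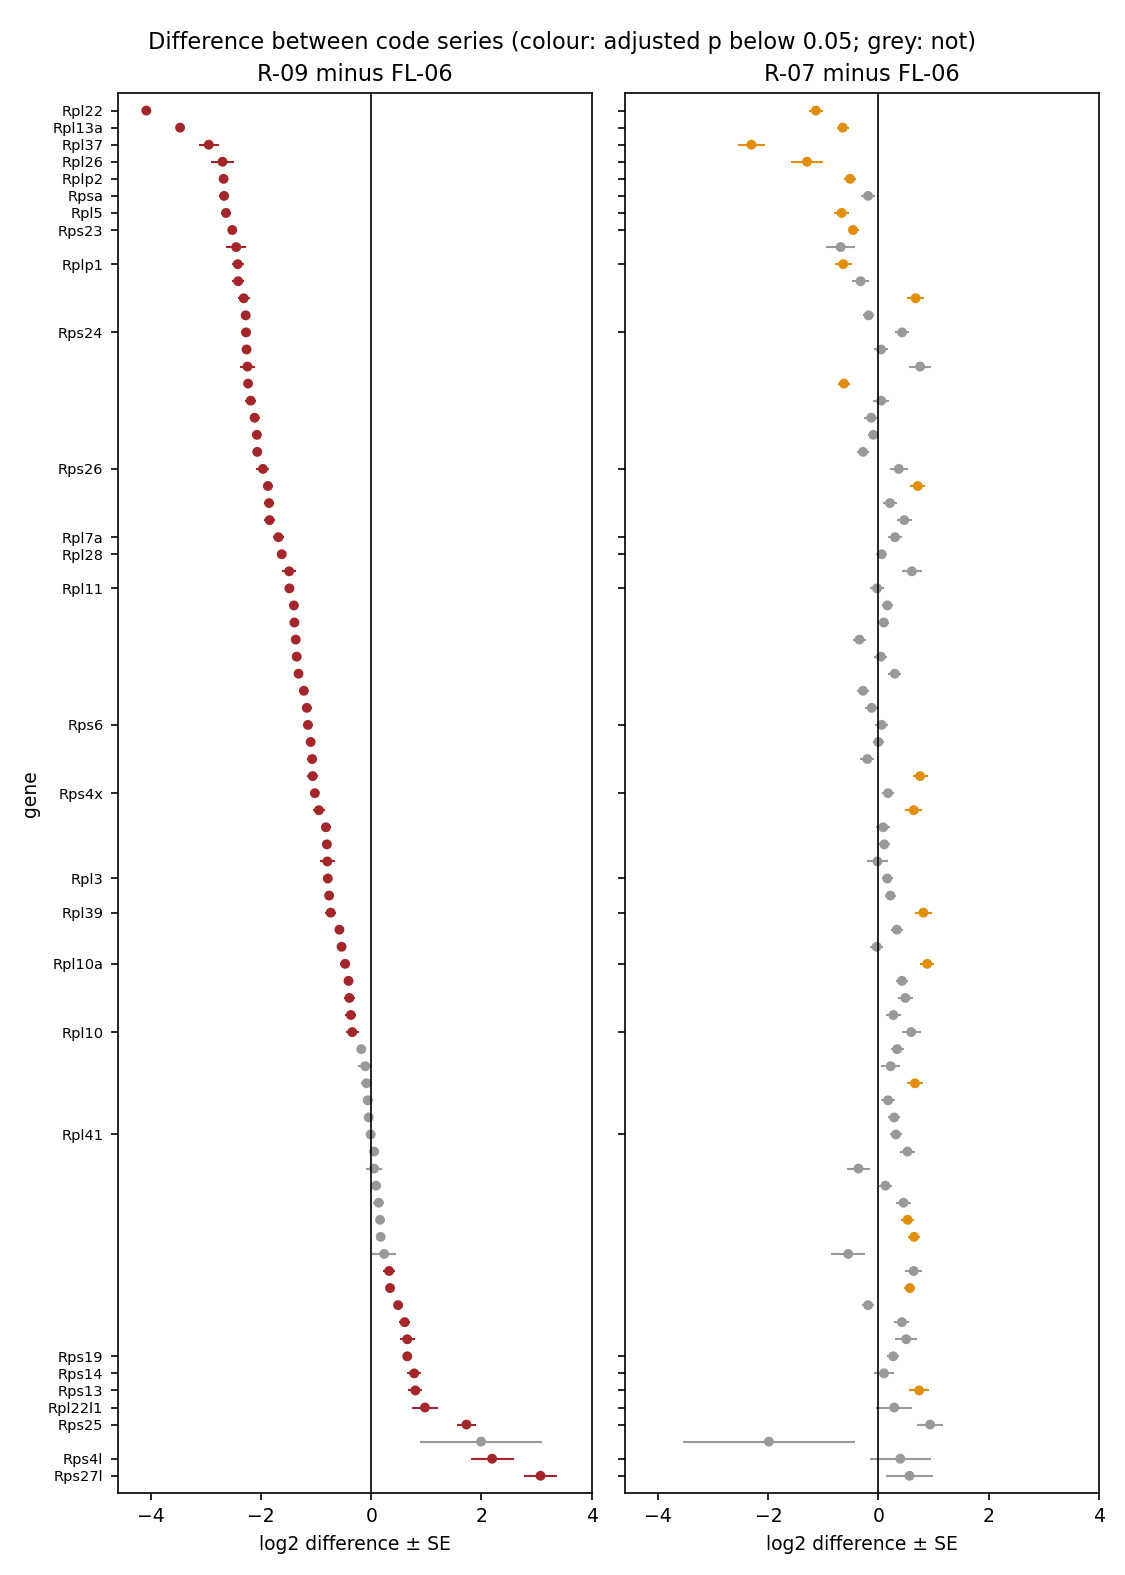
Log2 difference from FL-06 (horizontal axes) with its SE for each of the 81 tested ribosomal protein genes (vertical axis, 28 labelled), for R-09 on the left and R-07 on the right; coloured points had an adjusted p below 0.05. On the left 55 genes lie below 0 in colour, from −4.09 for Rpl22, and 12 above, up to 3.07 for Rps27l; on the right 9 lie below and 11 above.

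In 4 of 8 paralogue pairs the share of the second gene was higher in every R-09 library than in every other library. In the pairs of Rpl3, Rpl10, Rpl39 and Rpl32 with their paralogues, R-09 overlapped FL-06. Rpl22l1, which can replace Rpl22 in the ribosome and which Rpl22 represses in mice, stood at 943, 864, 1102 and 1011 units in R-09, 687 and 744 in R-07 and 285, 480.4 and 793 in FL-06. The R-09 libraries lay above all FL-06 libraries, and the difference was 0.97 (SE 0.23, adjusted p = 0.00294). Of the units on both genes, it held 1.89% ± 0.588 (SD, n = 6) in FL-06. That share was 5.53% ± 0.163 (SD, n = 2) for R-07 and 39.1% ± 1.90 (SD, n = 4) for R-09. Over this shift in the share, Rpl22 was 17.0-fold lower and Rpl22l1 1.96-fold higher in R-09 than in FL-06.

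Rps27l, a p53 target in human and mouse cells, had the largest rise of the 81 genes in R-09. It stood at 3497, 3228, 3979.7 and 2832 units in R-09, 533 and 683 in R-07 and 164, 492 and 550.5 in FL-06 (3.07, SE 0.302, 8.41-fold higher). It made up 50.3% ± 2.69 (SD, n = 4) of the units on Rps27 and Rps27l in R-09 and 10.8% ± 3.72 (SD, n = 6) in FL-06. Rps4l stood at 998, 728, 709 and 661 units in R-09 and 87.3, 177 and 261 in FL-06 (2.19, SE 0.389), and took 8.38% of its pair with Rps4x in R-09 against 1.02% in FL-06. Rpl7l1 did not pass (0.05, SE 0.151, with a changed sign when WT naive 2 or WT naive 3 was left out), while Rpl7 was lower (−1.32, SE 0.0829). Its share of the pair was 28.9% in R-09 and 13.7% in FL-06. Shares of a pair were over units, not per length, and reads of near-identical copies may have been split or lost.

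**Figure D5:**
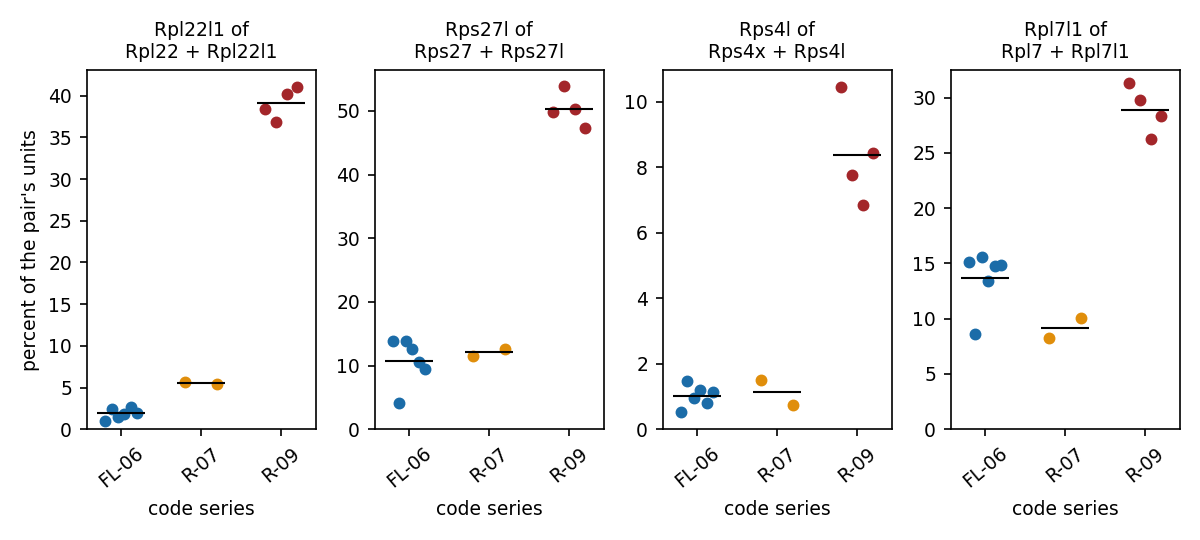
Percent of a pair's units that fell on the second gene (vertical axes, each from 0) in each library, by code series, for 4 paralogue pairs; lines are means. In all 4 panels the R-09 libraries lie above every FL-06 and R-07 library, at 36.8 to 41.1% for Rpl22l1 and 47.4 to 53.9% for Rps27l.

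R-07 was compared with FL-06 through KO libraries, with 1 R-07 library in each KO group. At the threshold 20 of 81 ribosomal protein genes passed (24.7%), against 3.57% of all tested genes, with 11 higher (13.6%, against 0.536%) and 9 lower (11.1%, against 3.03%). This count was fragile: it was 0 without the variance trend, 0 without KO naive 2, 4 without KO treated 1 or 3, 5 without KO naive 3, 11 without WT treated 1, 31 without WT naive 2 and 13 of 80 without R-09. Quantile normalization gave 35 higher and 5 lower. The median was 0.17 (0.10 for all tested genes), at 0.34 over the small and 0.06 over the large subunit. It was 0.079 without KO treated 3 and 0.37 under quantile normalization.

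Rpl37, a zinc-binding large-subunit protein, was the lowest in R-07, at 5556 and 6272 units against 14896, 27528 and 31833 in FL-06 and 3143, 2700.2, 3879 and 3384 in R-09. Its difference from FL-06 was −2.31 (SE 0.25, adjusted p = 0.000932). Among the other lower genes were Rpl26 (−1.30), Rpl22 (−1.14), Rpl5 (−0.67), Rpl13a (−0.65), Rplp1 (−0.64), Rplp2 (−0.52) and Rps23 (−0.46). The R-09 difference of Rps23, which rests on the same FL-06 libraries, was −2.52.

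Among the genes that passed, the highest rise in R-07 was that of Rpl10a, at 12976 and 12468 units against 6360.3, 7272 and 8597 in FL-06 (0.88, SE 0.124, adjusted p = 0.00329). Rpl39 stood at 5336 and 4809 units against 2144, 2701 and 3171 (0.82, SE 0.148). R-07 lay above FL-06 for both genes, and R-09 lay below FL-06 for both. The other 9 rises ran from 0.53 for Rpl15 to 0.76 for Rpl31, and held Rps12, Rps13, Rps15, Rps18, Rps28, Rpl18 and Rpl27a. Rps13 lay just inside the threshold (adjusted p = 0.04999) and Rpl9 just outside it (adjusted p = 0.0503).

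Promoter sequence was available for 63 of the 84 genes, from the RefSeq annotation of GRCm38.p6, as 250 bases before and 50 after each annotated start. In 14 of the 63 (22.2%), a start was a C followed by at least 4 pyrimidines, against 3.01% of all 27025 genes with an entry. Of the genes with an entry, 9 of 41 called lower in R-09 had such a start, 5 of 10 not called and 0 of 9 called higher. The following windows, 20 bases before and 20 after the start, show it in genes of the first and the second kind, with the pyrimidine run in capitals.
Rplp2, chr7:141447631-141447670, plus strand: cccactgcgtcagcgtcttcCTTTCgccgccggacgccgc
Rps21, chr2:180257359-180257398, plus strand: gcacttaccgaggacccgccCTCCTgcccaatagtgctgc
Rps6, chr4:86857348-86857387, minus strand: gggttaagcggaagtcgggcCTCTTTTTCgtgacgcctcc
Rps27, chr3:90213629-90213668, minus strand: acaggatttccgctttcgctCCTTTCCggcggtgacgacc
Rps18, chr17:33955646-33955685, minus strand: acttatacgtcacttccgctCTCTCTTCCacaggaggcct
Rpl15, chr14:18270967-18271006, minus strand: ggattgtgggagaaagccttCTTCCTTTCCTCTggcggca
Rplp2, Rps21 and Rps6 were lower in R-09 (−2.68, −2.25 and −1.15), and Rps27, Rps18 and Rpl15 did not pass (−0.11, 0.17 and 0.16). A TOP-like start was thus present on both sides of the threshold. A start annotated a few bases away would be missed by this search.

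Other motifs were searched on both strands of the 300 bases. CCGGAAG, the core bound by ETS factors such as GABP, was found in 25 of 63 genes (39.7%) and in 9.93% of all genes. It occurred in 18 of 41 genes lower in R-09, 4 of 10 not called and 2 of 9 higher. CTCTTTCC, which can overlap a TOP start, was in 10 of 63 (15.9%, against 3.57%). AAGATGGC, the core of the YY1 motif, was in 6 (9.52%, against 3.19%), and TATAAA in 8 (12.7%, against 15.7%). Windows of 60 bases before and 20 after the start are shown for genes with 1 annotated start at the low end (Rpl13a, Rpl37, Rpl26) and the high end (Rps25, Rpl22l1, Rps13) of the R-09 difference, with CCGGAAG in capitals.
Rpl13a, chr7:45128726-45128805, minus strand: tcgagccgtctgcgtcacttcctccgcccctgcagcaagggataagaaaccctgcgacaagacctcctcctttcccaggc
Rpl37, chr15:5116553-5116632, plus strand: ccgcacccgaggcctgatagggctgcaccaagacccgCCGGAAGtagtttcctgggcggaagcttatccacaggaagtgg
Rpl26, chr11:68901506-68901585, plus strand: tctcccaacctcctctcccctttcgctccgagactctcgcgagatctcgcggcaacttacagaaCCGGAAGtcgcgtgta
Rps25, chr9:44407654-44407733, plus strand: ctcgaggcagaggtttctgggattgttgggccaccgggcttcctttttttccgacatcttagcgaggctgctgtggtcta
Rpl22l1, chr3:28805448-28805527, plus strand: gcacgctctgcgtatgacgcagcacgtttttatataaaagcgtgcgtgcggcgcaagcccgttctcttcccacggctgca
Rps13, chr7:116334171-116334250, minus strand: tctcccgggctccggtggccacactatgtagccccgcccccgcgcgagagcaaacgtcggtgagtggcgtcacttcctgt
Rpl37 and Rpl26 hold the motif in this window and the other 4 do not. The extremes, Rpl22 (−4.09) and Rps27l (3.07), have more than 1 annotated start and are not shown. Rps27l, the highest, holds the motif in the window of its first start, and Rpl22, the lowest, does not. The matches describe letters only.

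Gene structure was compared with the R-09 difference over 79 genes. Spearman's rho was −0.03 for coding length, 0.04 for GC content, −0.07 for the number of exons, −0.21 for snoRNA genes inside the introns and −0.08 for processed copies in the genome. Over 10501 tested genes with a coding sequence, rho was −0.52 for coding length and 0.19 for GC content. These describe genes of the same libraries, which are not independent. Of the 84 genes, 29 hold an annotated snoRNA gene and 76 have at least 1 copy elsewhere in the annotation (at least 90% identity over at least 80% of the coding sequence), with a median of 8 and at most 76. How reads that match several copies were counted was not given, so the levels of genes with copies are uncertain.

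Genes with ribosomal protein names or products that the naming rule left out were also lower in R-09. Of 6 listed, 5 were tested and all 5 passed as lower, against 32.3% of all tested genes. Among them were Fau (−1.72), which encodes a ubiquitin-like fusion with Rps30, Rpl36al (−0.81) and Rps3a1 (−0.70). Another of the 5, Rpl34-ps1 (−0.93), is a pseudogene by its name. Whether its reads came from Rpl34, which was also called lower, was not tested. Of 23 translation factors and other TOP mRNAs, 17 were lower (73.9%, against 32.3% of all tested genes) and 3 higher (13%, against 35.6%), with a median of −1.32. Poly(A)-binding protein Pabpc1 had −3.53 (SE 0.0708), Tpt1 −2.29 (SE 0.0684), the elongation factor Eef2 −1.93 (SE 0.0776) and Eef1a1 −1.40 (SE 0.0735). Of 50 ribosome biogenesis factors, 23 were lower (46%) and 11 higher (22%), against the same 32.3 and 35.6%, with a median of −0.28. Nucleolin, Ncl, had −3.70 (SE 0.101), the helicase Ddx21 −3.71 (SE 0.108), and Eif6, which keeps the subunits apart, 1.29. None of these lists had a gene past the test for IFN-γ or for genotype.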

How the data were processed

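Bulk RNA-seq of sorted mouse HSCs was used, 12 libraries in 4 groups of 3. The authors deposited a table of normalized counts per gene, a never-negative signal (units). The submitters' processing notes name STAR and DESeq, with no version or role stated. Genome build, annotation, strand handling and the counting of multi-mapped reads were not given in the sources used here. The values were not whole reads: 2.05 to 4.60% of values in a library were whole multiples of its most common low value (tolerance 0.01). No count model was therefore used. With so few whole multiples, that low value cannot be taken as 1 read. Depth is therefore not known, and no counting interval is given.

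The 26 of 24972 rows whose gene name had become a date were dropped. Values were analysed as log2(value + 1), which understates changes of low genes. Genes at 100 units or more in at least 3 libraries (10816) were fitted with limma 3.58.1 (R 4.3.3) on 4 group means plus code series, with empirical Bayes moderation and a variance trend (6 residual and 5.02 prior degrees of freedom). P-values were adjusted by Benjamini-Hochberg over all 10816 genes, with a threshold of 0.05. The design was written for this unit as the fallback to a count test. The fit was tested on simulated data.

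Replicate numbers did not pair the libraries: same-numbered libraries of different groups had correlated deviations above 0.1 in 8 of 18 pairs (r from −0.88 to 0.825), and libraries of the same code series in 20 of 20 (r from 0.399 to 0.908). Coding lengths, GC content, exons, snoRNA genes and copies came from GENCODE vM21 (82 of 84 genes matched; copies by blastn 2.17.0), promoters from RefSeq.

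The members and gene lists were chosen with earlier results of these data known. Genes were named by role (stalk, 5S particle, anaemia genes, paralogues, size extremes) and by the smallest p in each comparison. Genes of other lists were named if past the test, up to 4 per list. Outside that rule, other members called higher in R-09, called in R-07 or not called in R-09, those lower in all 5 combinations, and Eif6, Polr2e, Polr2h, Myc, Eif4e, Mdm2 and Gas5 were named after their values were seen. Some genes are counted but not reported by name here. Alternatives covered the pseudocount, the filter, quantile scaling, size factors without these genes, the covariates, the variance model, array weights and leaving out libraries or code series.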

Additional observations from a re-analysis of the deposited data

How the results depend on the processing

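Calls for IFN-γ, genotype and their interaction were 0 of the ribosomal protein genes in the main analysis and in all 23 alternatives for each of the 6 comparisons, including leaving out any single library, and at an unadjusted p below 0.05 the main counts were 1 to 11. The median over the ribosomal protein genes changed sign in 2 alternatives for IFN-γ in WT (range −0.05 to 0.0045), 2 for genotype in naive (−0.026 to 0.10) and 1 for genotype in treated HSCs (−0.11 to 0.0040), and in 0 for IFN-γ in KO, the average and the interaction. The R-09 count lay between 65 and 69 over 20 alternatives (66 to 68 when leaving out 1 library). The R-07 count was 20, and leaving out 1 library gave 0 to 31. It was 40 under quantile normalization, 0 without the variance trend (31 at an unadjusted p below 0.05) and 13 without the 4 R-09 libraries; the cause was not tested.

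A replicate block in place of the code series gave 0 calls in each of the 6 comparisons, as did no code series at all; replicate numbers did not pair the libraries. Both settings turned the genotype difference of Rpl37 in naive HSCs to −0.32 and that of Rpl10a in treated HSCs to 0.042, neither past the test. Quantile normalization gave −0.43 for the IFN-γ effect on Rpl32l in WT, and 0.12 for Rps27 and 0.19 for Rps29 in R-09. Rpl7l1 in R-09 was −0.014 with array weights, −0.056 without WT naive 2 and −0.094 without WT naive 3, and leaving out 1 library gave −0.094 to 0.15. Of the values of named genes under alternatives, 2218 kept direction and side of the threshold, 46 lost the call, 1 gained it (Rpl35a in R-09, 0.36 under quantile normalization) and 10 changed sign. Each group had 3 libraries, and WT naive 2 had fewer genes above 0 (10567) than any other library. Small differences of low genes such as Rpl32l and Rps4l could not be resolved.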

Other observations

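Other parts of the ribosome machinery were read in the same fit, between R-09 and FL-06, where 32.3% of all tested genes were lower and 35.6% higher, with a median of 0.23. Of 19 tested subunits and factors of RNA polymerase I, which transcribes rRNA, 9 were higher (47.4%) and 5 lower (26.3%; median 0.31). Polr1a, its largest subunit, had −3.03 and the rDNA-binding Ubtf −2.07, while Polr2e and Polr2h, subunits that RNA polymerases share, had 2.10 and 2.26. Of 20 genes in a list on TOP mRNAs and mTORC1, 10 were lower (50%) and 7 higher (35%), with a median of −0.50. This list holds both activators and inhibitors of mTORC1, and the transcription factors Myc, Mycn and Max. Mtor had −3.85, Max −3.86 and Larp1 −2.35, and the cap-binding protein Eif4e had 1.14. Myc had 0.40. Of 14 tested ribosome quality control genes, 7 were lower (50%) and 2 higher (14.3%; median −0.51), including Zfp598, a sensor of collided ribosomes, at −1.81, and Nemf at −1.59.

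Of 11 tested genes of the 5S particle and p53 list, 6 were lower (54.5%) and 4 higher (36.4%; median −0.42). Trp53, which encodes p53, had 0.93 and its target Cdkn1a 3.33 (SE 1.12), a low gene with a mean log2 level of 5.43. Zmat3 (−4.74, SE 0.748) and Ccng1 (−0.42, SE 0.171) of the same list were among the lower genes, and Mdm2 did not pass (0.15). Of 12 tested snoRNA host genes, 3 were lower (25%) and 1 higher (8.33%; median 0.21), both below the shares over all tested genes, and Gas5, a TOP RNA that hosts several snoRNAs, was at 0.09 without passing. The same markers of neutrophils, monocytes and lymphocytes were higher in R-09, and their part in these differences was not tested. None of these lists had a gene past the test for IFN-γ or genotype.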
